A study of Mus musculus with 15 samples.

Results

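The genes described here encode subunits of 3 machines of the inner mitochondrial membrane: complex II (succinate dehydrogenase), complex III (the cytochrome bc1 complex) and the ATP synthase. They were chosen by symbol, as every probe set named Sdha, Sdhb, Sdhc, Sdhd or Cyc1 or with a symbol that begins with Uqcr or Atp5. The rule found 26 of the 25206 probe sets measured. Of these, 24 are protein-coding genes (4 of complex II, 8 of complex III and 12 of the ATP synthase) and 2 are pseudogenes, Atp5c1-ps and Uqcrh-ps1.

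Complex II oxidises succinate in the citric acid cycle and passes the electrons to ubiquinone. Complex III takes electrons from ubiquinol, hands them to cytochrome c and pumps protons out of the matrix, and the ATP synthase lets protons back in through its membrane rotor to make ATP. In brown fat the uncoupling protein UCP1 gives protons another way back, which releases heat. Rodent brown fat is known for a dense respiratory chain with little ATP synthase for its amount, and for a low level of Atp5g1 messenger RNA, 1 of the genes for the rotor's c subunit.

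RNA came from adipocytes sorted by flow cytometry from UCP1/Tomato reporter mice aged 8 to 10 weeks and was measured on 15 Affymetrix arrays as log2 expression. WAT holds 4 arrays of UCP1-negative white adipocytes from the inguinal fat of untreated mice, and BAT holds 3 arrays of UCP1-positive brown adipocytes from the brown fat of untreated mice. The other groups hold UCP1-positive adipocytes from the inguinal fat of treated mice: CL after the beta-adrenergic agonist CL316243 (3 arrays), RS after roscovitine, a cyclin-dependent kinase inhibitor (2 arrays), and RG after the PPARG agonist rosiglitazone (3 arrays). The labels name these cells beige adipocytes, or brite for RS. All mice were fed standard chow. The gate is labelled UCP1(GFP) although the mice are named for Tomato, and which reporter was sorted on is not given. They give no dose, treatment time or sex, and do not say that arrays came from separate animals, so p-values measure the spread between these arrays. Inguinal UCP1-positive cells of untreated mice are not among the arrays, so the treatment and the gate cannot be told apart in a comparison of CL, RS or RG with WAT. The labelled UCP1 state matched the arrays: Ucp1 lay between 3.20 and 4.47 in WAT, and at 6.05 or more in every array of the sorted positive groups. RS 3 had the 6.05, and RS 4 had 8.43.

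The arrays also differed in genes of other cells. The mean log2 level of 11 macrophage markers was 7.36 to 8.49 in WAT, 4.95 to 5.27 in BAT, 4.97 to 5.78 in CL, 4.47 to 5.02 in RS and 4.87 to 5.99 in RG, and 11 of 11 were lower in each of the 4 other groups than in WAT. Over all probe sets, 16.4% were lower than in WAT in BAT, 9.97% in CL, 10.3% in RS and 6.24% in RG. WAT 4 stood apart from the other WAT arrays, with the 8.49. The counts of members and of neighbouring gene lists that were compared with WAT are given with and without it, while the levels and differences of single genes use all 4 WAT arrays unless stated. Of 12 stromal markers, 12 were lower in BAT than in WAT, 8 in CL, 10 in RS and 4 in RG. Of 10 endothelial markers, 7 were lower in RS and 1 in RG. The 2 RS arrays differed here, with endothelial means of 4.11 in RS 3 and 6.17 in RS 4. The endothelial mean was 5.87 in WAT 4 and 6.74 to 7.27 in the other WAT arrays. Stromal means were 5.65 in RS 3 and 6.87 in RS 4, and 7.85 to 9.39 in WAT. With WAT 4 left out, 3 stromal markers were lower in CL, and 8 endothelial markers were lower in RS, 4 in RG and 1 in BAT. Skeletal muscle markers, whose array means stayed between 2.82 and 3.74, were higher in 6 of 10 in BAT, 4 in CL, 5 in RS and 1 in RG. Red blood cell markers, 4 in number, had array means of 2.39 to 3.16 in WAT and 2.80 to 4.99 in the other groups, and 2 were higher than in WAT in BAT, 1 in CL, 1 in RS and none in RG. Of 10 general adipocyte markers, 2 were higher than in WAT in BAT and in CL, 4 in RS and 6 in RG. With WAT 4 left out, 1 adipocyte marker was higher in BAT and 2 in each of CL, RS and RG. Muscle counts were then 5 in BAT, 4 in CL, 5 in RS and 1 in RG, and red blood cell counts stayed the same. Over all probe sets and arrays, 27.6% were higher than in WAT in BAT, 15.2% in CL, 11.1% in RS and 5.19% in RG. The part of these other cells in the subunit differences from WAT was not tested. In sorted cells measured in bulk, fewer cells of a type and less RNA per cell cannot be told apart.

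Brown adipocytes had more messenger RNA for nearly every subunit than white adipocytes. Of the 24 coding members, 21 were higher in BAT than in WAT and none was lower: 4 of 4 in complex II, 8 of 8 in complex III and 9 of 12 in the ATP synthase. Atp5c1, Atp5j and Atp5g3 did not pass the test. Over all probe sets, 27.6% were higher in BAT. The median log2 difference was 1.12 over the coding members and 0.18 over all probe sets. A difference was called at a Benjamini-Hochberg adjusted p under 0.05 over all probe sets, with limma fitted to all 15 arrays.

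The 3 treated groups differed from WAT in how many subunits passed. In CL, 21 of 24 coding members were higher than in WAT, and the 3 that did not pass were again Atp5c1, Atp5j and Atp5g3, with a background of 15.2% of all probe sets and a median difference of 0.98 against 0.13 overall. In RG, 15 of 24 were higher (4 of complex II, 6 of complex III and 5 of the ATP synthase), with a background of 5.19% and a median of 0.67 against 0.10 overall. In RS, 4 of 24 were higher (Sdha, Cyc1, Uqcrfs1 and Atp5k), with a background of 11.1% and a median of 0.49 against 0.14 overall. The RS count lies close to its background. No coding member was lower than WAT at the threshold in any of these 4 comparisons, which share the WAT arrays.

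How many passed in RS and RG rested on single arrays. The RS count fell to 0 without WAT 2, WAT 4, RS 3 or RS 4, and the RG count was 6 without WAT 2, 6 without WAT 4, 2 without RG 2 and 1 without RG 4. In CL it was 15 without CL 4. Calls over all probe sets, in either direction, also fell. In RG their share was 11.4% with all arrays and 7.03%, 6.17%, 4.82% and 4.14% in the order above. In RS it was 21.4%, then 15.7% without WAT 2, 14.5% without WAT 4, 13.8% without RS 3 and 11.7% without RS 4. In CL it was 25.2%, then 14.1% without CL 4. The median RG difference of the coding members, 0.67 with all arrays, was 0.645, 0.53, 0.65 and 0.64 in the order above. In BAT, 20 or more of the 21 kept their call when any 1 array was left out.

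Without WAT 4, the array with the most macrophage signal, 21 coding members were higher in BAT than in WAT, 19 in CL, 6 in RG and none in RS. Over all 25206 probe sets, 5546 were then higher in BAT, 2433 in CL, 536 in RG and 1663 in RS. With all arrays these were 6950, 3838, 1308 and 2786. Without WAT 4 the median difference of the coding members from WAT was 0.96 in BAT, 0.79 in CL, 0.53 in RG and 0.34 in RS. Over all probe sets it was 0.16, 0.11, 0.09 and 0.11. The CL calls of Uqcr11 and Atp5mpl were lost. In RG, Sdhd, Cyc1, Uqcrfs1, Uqcr10, Atp5pb and Atp5k kept theirs, and Sdha, Sdhb, Sdhc, Uqcrc1, Uqcrc2, Uqcrh, Atp5a1, Atp5b and Atp5g3 lost theirs, with limma adjusted p-values from 0.0525 to 0.113. The RS differences of Sdha, Cyc1, Uqcrfs1 and Atp5k then had adjusted p-values from 0.0554 to 0.108.

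**Figure D1:**
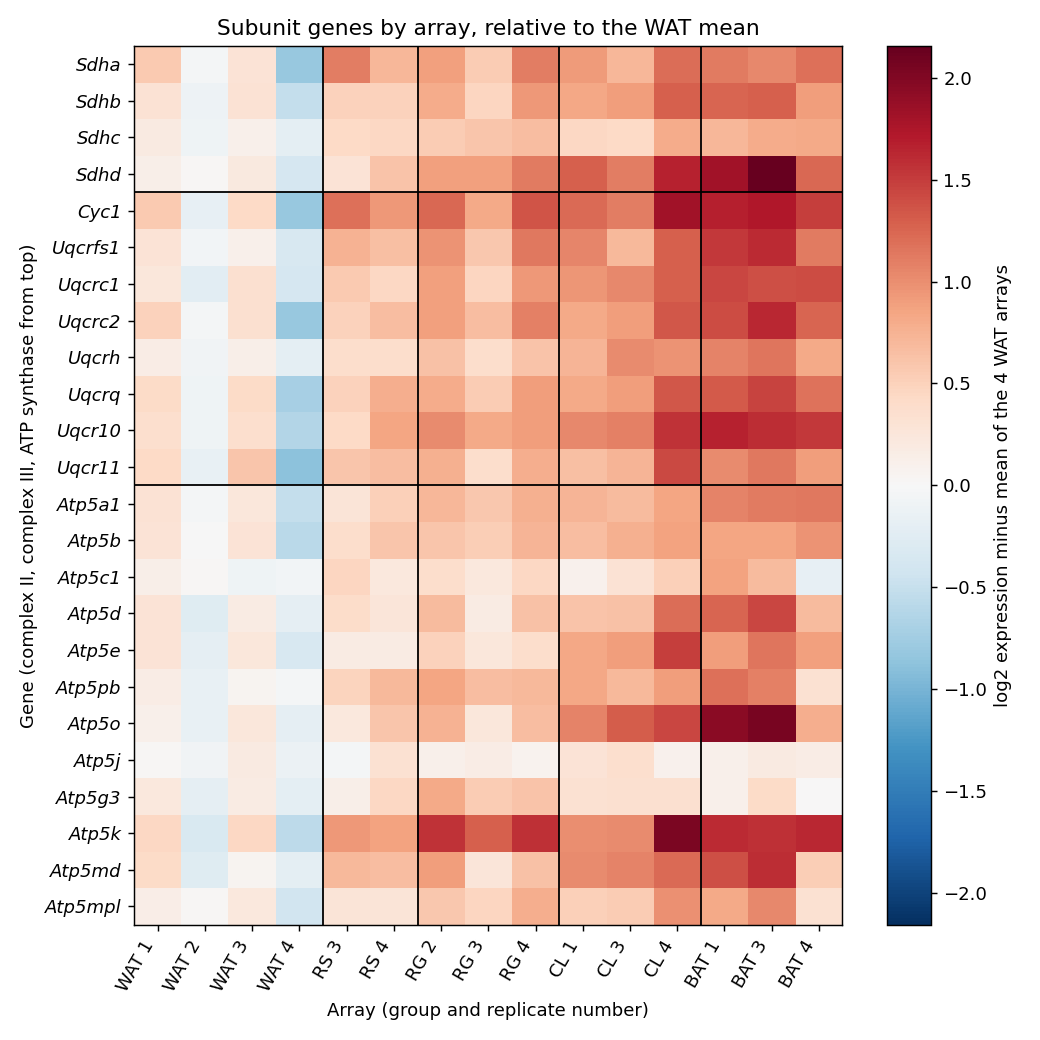
Each row is a coding subunit gene, each column an array, and the colour is the array's log2 expression minus the mean of the 4 WAT arrays. Red fills most of the BAT and CL columns, WAT 4 is the bluest column in most rows, and the rows of Atp5c1, Atp5j and Atp5g3 stay pale.

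**Figure D2:**
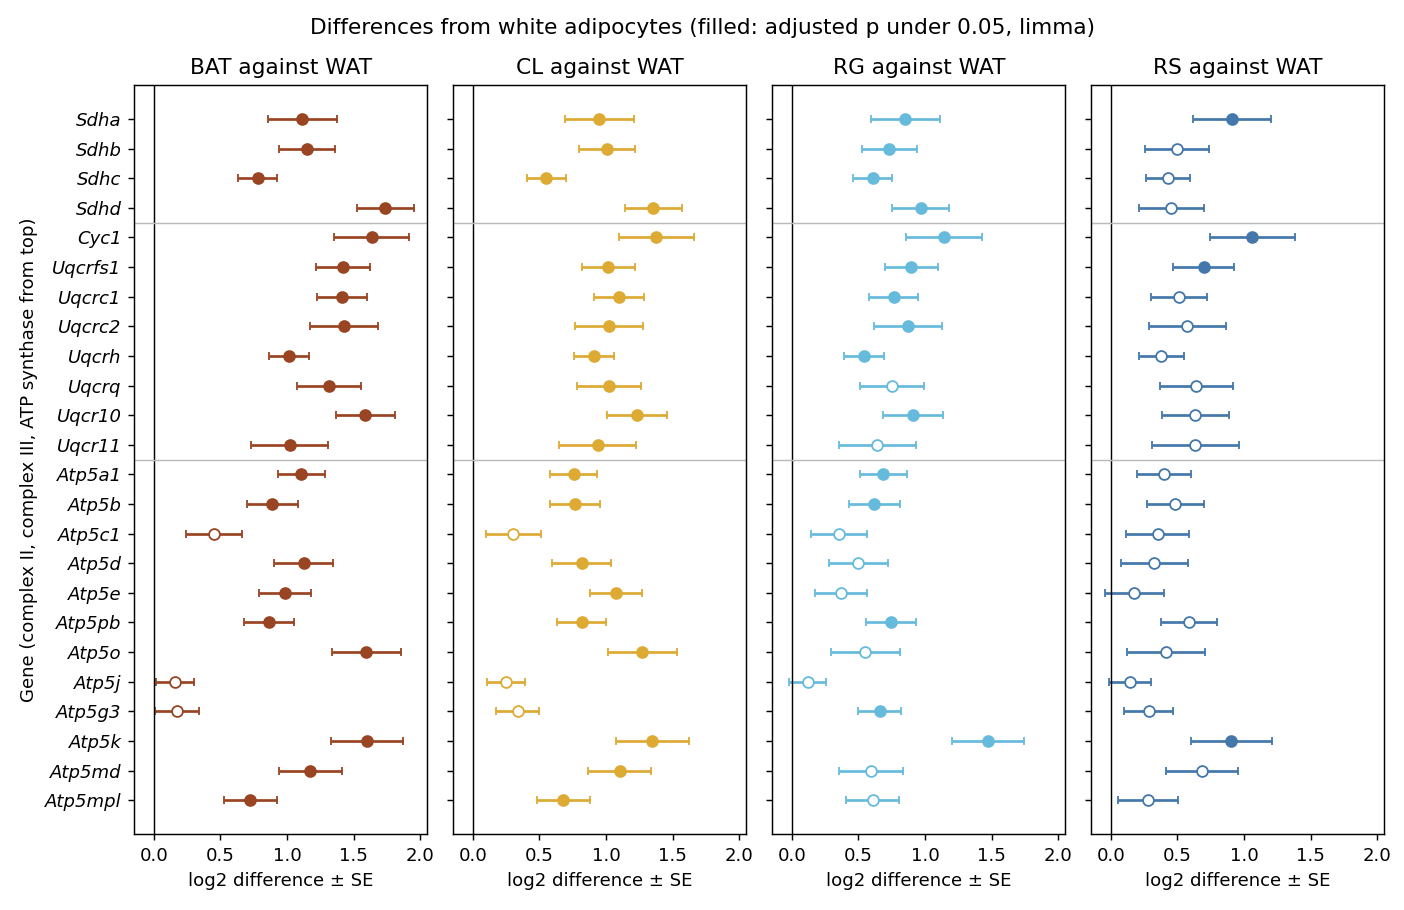
Log2 difference from WAT for each coding subunit in BAT, CL, RG and RS, with the standard error from limma as bars and filled points where the adjusted p is under 0.05. The points lie to the right of 0 in all 4 panels, 21 are filled in BAT and in CL, 15 in RG and 4 in RS.

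The members' promoter windows in RefSeq (build GRCm38.p6, from 250 bases before to 50 bases after the start site) were searched on both strands for short motifs of factors known for mitochondrial genes. A window was at hand for 18 of the 24 coding members, with 21 windows in all. The estrogen-related receptor sequence AAGGTCA was in 4 of 21 windows (19.0%) and in 4.08% of 21262 coding-gene windows. The core GCGCATGC of the NRF1 site, which can overlap itself on the opposite strand, was in 4 windows (19.0%) against 3.51%, and the ETS sequence CCGGAAG of the factor GABPA in 8 windows (38.1%) against 11.6%. The CCAAT sequence was in 10 windows (47.6%) against 38.2%. A match is only a description of these letters, and no binding was measured.

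The windows below belong to Atp5k, which had the largest BAT difference in the ATP synthase and all 3 longer motifs, to Sdhd and Uqcrc1, which also differed between BAT and both RS and RG, and to Atp5g3, which stood apart from the other subunits. Capitals mark matches to AAGGTCA, GCGCATGC or CCGGAAG or to their reverse complements. Atp5k (chr5:108434350-108434649, minus strand) has overlapping NRF1 matches starting at -50 and -48 from the start site, an ETS match at 13 and an AAGGTCA match at 24. Sdhd (chr9:50603800-50604099, minus strand) has an ETS match at -46 and an AAGGTCA match at 37. Uqcrc1 (chr9:108936398-108936697, plus strand) has overlapping NRF1 matches at 31 and 33. Atp5g3 (chr2:73911277-73911576, minus strand) has an AAGGTCA match at -52.
Atp5k: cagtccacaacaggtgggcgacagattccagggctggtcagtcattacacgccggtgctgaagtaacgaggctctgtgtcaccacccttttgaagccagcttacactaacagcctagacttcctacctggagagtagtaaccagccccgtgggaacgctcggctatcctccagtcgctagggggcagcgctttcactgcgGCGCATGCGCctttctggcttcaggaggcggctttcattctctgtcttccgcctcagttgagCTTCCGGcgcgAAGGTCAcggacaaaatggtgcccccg
Sdhd: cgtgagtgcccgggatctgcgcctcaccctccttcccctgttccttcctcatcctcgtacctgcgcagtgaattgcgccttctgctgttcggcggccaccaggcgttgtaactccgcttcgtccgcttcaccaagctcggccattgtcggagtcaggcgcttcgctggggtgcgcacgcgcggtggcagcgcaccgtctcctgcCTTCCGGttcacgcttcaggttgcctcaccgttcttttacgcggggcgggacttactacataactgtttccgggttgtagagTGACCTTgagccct
Uqcrc1: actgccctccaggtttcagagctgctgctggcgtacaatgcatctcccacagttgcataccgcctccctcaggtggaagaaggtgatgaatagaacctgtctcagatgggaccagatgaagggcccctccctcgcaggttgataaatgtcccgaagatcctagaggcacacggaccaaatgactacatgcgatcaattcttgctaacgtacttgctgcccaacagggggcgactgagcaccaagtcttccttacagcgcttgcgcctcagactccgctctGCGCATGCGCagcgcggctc
Atp5g3: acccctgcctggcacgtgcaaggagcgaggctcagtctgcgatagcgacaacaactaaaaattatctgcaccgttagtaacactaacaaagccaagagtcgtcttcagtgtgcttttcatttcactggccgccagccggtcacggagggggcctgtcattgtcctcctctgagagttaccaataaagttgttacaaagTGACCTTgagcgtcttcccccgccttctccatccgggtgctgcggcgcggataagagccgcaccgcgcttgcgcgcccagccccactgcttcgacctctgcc
The same AAGGTCA letters stand in the windows of Atp5k and Sdhd, among the largest BAT differences, and of Atp5g3, among the smallest. The window of Atp5o, the other gene that differed between BAT and both RS and RG, held no match to the 3 longer motifs and is not shown.

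In complex II, Sdhd moved most. Sdhd, which with Sdhc anchors the enzyme in the membrane, had log2 levels of 6.57, 6.46, 6.66 and 6.08 in the WAT arrays and 8.26, 8.60 and 7.68 in BAT 1, BAT 3 and BAT 4. It was at 7.74, 7.55 and 8.10 in CL 1, CL 3 and CL 4, at 6.74 and 7.05 in RS 3 and RS 4, and at 7.33, 7.33 and 7.57 in RG 2, RG 3 and RG 4. All other arrays lay above all WAT arrays, and the RS arrays were the nearest to them. Sdhd was 3.33-fold higher in BAT than in WAT (log2 difference 1.74 ± 0.215, SE, limma adjusted p = 5.77e-05), 2.56-fold higher in CL (adjusted p = 0.000907) and 1.96-fold higher in RG (adjusted p = 0.0118). The RS difference was 0.45 ± 0.244 and did not pass (adjusted p = 0.186).

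Sdha, the flavoprotein that oxidises succinate, showed another order. Its WAT levels were 9.04, 8.44, 8.77 and 7.67, its BAT levels 9.60, 9.52 and 9.66, and its CL levels 9.40, 9.20 and 9.69. The RS arrays were at 9.58 and 9.20 and the RG arrays at 9.37, 9.03 and 9.59. Here the RS arrays lay within the range of CL, only RG 3 fell inside the WAT range, and WAT 4 lay 1.08 below the mean of the other WAT arrays. Sdha was 2.16-fold higher in BAT (log2 difference 1.11 ± 0.259, adjusted p = 0.0036), and the differences of 0.95 in CL, 0.91 in RS and 0.85 in RG also passed (limma adjusted p = 0.0162, 0.0393 and 0.046). The adjusted p of Sdha was 0.0701 in RS and 0.105 in RG without WAT 4.

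Sdhb, the iron-sulfur subunit, was at 9.36, 8.94, 9.36 and 8.53 in WAT, 10.31, 10.33 and 9.95 in BAT, 9.88, 9.95 and 10.34 in CL, 9.54 and 9.55 in RS, and 9.85, 9.51 and 9.98 in RG. The RS arrays were only slightly above the highest WAT arrays. The difference from WAT was 1.15 ± 0.21 in BAT, 1.01 in CL and 0.73 in RG, all past the threshold, and 0.50 in RS, which was not (adjusted p = 0.138).

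Sdhc, the other membrane anchor, had the smallest differences of the complex. It was at 7.35, 7.07, 7.27 and 6.94 in WAT, 7.87, 7.96 and 7.98 in BAT, 7.60, 7.58 and 7.95 in CL, 7.58 and 7.60 in RS, and 7.71, 7.75 and 7.83 in RG. No array of another group fell into the WAT range. Sdhc was 1.72-fold higher in BAT (log2 difference 0.78 ± 0.146, limma adjusted p = 0.000892), and the differences of 0.55 in CL and 0.61 in RG passed. The RS difference of 0.43 did not (adjusted p = 0.0705).

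**Figure D3:**
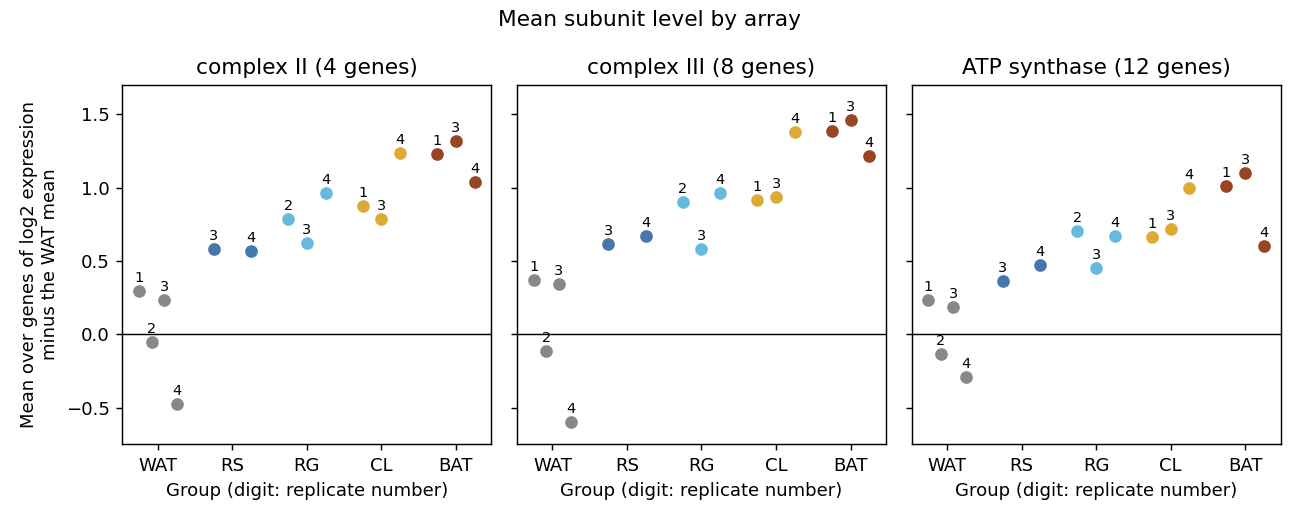
Each point is an array, and its height is the mean, over the genes of a complex, of the log2 expression minus the WAT mean, with the replicate number as the digit. WAT 4 is the lowest array of each panel, the RS arrays lie between WAT and CL, and BAT 4 lies below BAT 1 and BAT 3, most so in the ATP synthase panel.

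Complex III moved as a block in BAT and CL. Its 8 members differed from WAT by 1.01 to 1.64 log2 units in BAT and by 0.91 to 1.38 in CL, and all 8 passed in both comparisons. In RG the differences ran from 0.54 to 1.14 and 6 passed, with Uqcrq (0.75, adjusted p = 0.0555) and Uqcr11 (0.64, adjusted p = 0.157) left over. In RS they ran from 0.38 to 1.06 and only Cyc1 and Uqcrfs1 passed.

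Those genes carry redox centres of the complex. Cyc1, cytochrome c1, was at 8.92, 8.18, 8.79 and 7.53 in WAT, 10.03, 10.09 and 9.85 in BAT, 9.57, 9.46 and 10.17 in CL, 9.54 and 9.29 in RS, and 9.60, 9.17 and 9.72 in RG. The groups did not overlap with WAT, whose own arrays spread over more than 1 log2 unit. Cyc1 was 3.11-fold higher in BAT (log2 difference 1.64 ± 0.282, limma adjusted p = 0.00052), 2.60-fold in CL, 2.08-fold in RS (adjusted p = 0.0298) and 2.21-fold in RG (adjusted p = 0.0185).

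Uqcrfs1, the Rieske iron-sulfur protein, had lower values on the array, at 6.15, 5.79, 5.97 and 5.50 in WAT and 7.37, 7.47 and 6.98 in BAT. It was at 6.91, 6.55 and 7.15 in CL, 6.60 and 6.50 in RS, and 6.82, 6.44 and 6.99 in RG. All arrays of the other groups lay above all WAT arrays, and RS and RG overlapped with each other. The difference from WAT was 1.42 ± 0.201 in BAT (limma adjusted p = 0.000135), 1.02 in CL, 0.70 in RS (adjusted p = 0.041) and 0.90 in RG (adjusted p = 0.0121).

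Among the small subunits, Uqcr10 had the largest BAT difference and Uqcrh, the hinge protein that helps cytochrome c1 meet cytochrome c, the smallest of complex III. Uqcr10 was at 8.38, 7.92, 8.38 and 7.38 in WAT, 9.67, 9.60 and 9.54 in BAT, 9.06, 9.10 and 9.58 in CL, 8.44 and 8.86 in RS, and 9.03, 8.83 and 8.91 in RG. RS 3 was barely above WAT. The Uqcr10 difference was 1.59 ± 0.224 in BAT (limma adjusted p = 0.000132), 1.23 in CL and 0.91 in RG, and 0.64 in RS did not pass (adjusted p = 0.0816).

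Uqcrh was at 8.97, 8.74, 8.94 and 8.60 in WAT, 9.89, 9.96 and 9.63 in BAT, 9.54, 9.84 and 9.79 in CL, 9.19 and 9.19 in RS, and 9.44, 9.20 and 9.42 in RG. The groups stood in steps, with WAT lowest, then RS, RG, and CL and BAT together. The difference was 1.01 ± 0.15 in BAT (limma adjusted p = 0.000182) and 0.38 in RS, which did not pass (adjusted p = 0.117).

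The core proteins Uqcrc1 and Uqcrc2 form the part of the complex that faces the matrix. Uqcrc1 was at 9.11, 8.64, 9.20 and 8.49 in WAT, 10.30, 10.25 and 10.27 in BAT, 9.82, 9.90 and 10.15 in CL, 9.43 and 9.31 in RS, and 9.75, 9.33 and 9.79 in RG. The BAT arrays spanned only 10.25 to 10.30, and every array of the treated groups lay below them. Uqcrc1 was 2.66-fold higher in BAT than in WAT (log2 difference 1.41 ± 0.186, limma adjusted p = 8.92e-05). Uqcrc2 differed from WAT by 1.43 in BAT, 1.02 in CL and 0.87 in RG, and its RS difference of 0.57 did not pass (adjusted p = 0.157), with RS 3 just inside the WAT range.

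The ATP synthase was less even than the other complexes. Its 12 coding members differed from WAT by 0.16 to 1.60 in BAT, 0.25 to 1.35 in CL, 0.12 to 1.48 in RG and 0.14 to 0.91 in RS. The median difference in BAT was 0.94, beside 1.13 in complex II and 1.42 in complex III. That 0.94 includes Atp5c1 and Atp5j, whose weak signals had means of 4.28 and 4.03 over all arrays. The weakest member of complexes II and III, Uqcrfs1, had a mean of 6.61.

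In the F1 head, which holds the catalytic sites, Atp5a1 (subunit alpha) and Atp5b (subunit beta) had the strongest signals of all members. Atp5b was at 10.92, 10.62, 10.93 and 10.04 in WAT, 11.48, 11.48 and 11.59 in BAT, 11.30, 11.39 and 11.49 in CL, 11.00 and 11.22 in RS, and 11.22, 11.16 and 11.36 in RG. The BAT and CL arrays met near 11.5, and RS 3 lay just above WAT. Atp5b was 1.85-fold higher in BAT (log2 difference 0.89 ± 0.19, limma adjusted p = 0.00209), and the differences of 0.77 in CL and 0.62 in RG passed, while 0.48 in RS did not (adjusted p = 0.114). Atp5a1 differed from WAT by 1.11 in BAT, 0.76 in CL and 0.69 in RG, with 0.40 in RS not past the threshold.

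The central stalk, which turns inside the head, is made of Atp5c1, Atp5d and Atp5e (subunits gamma, delta and epsilon). Atp5d differed from WAT by 1.13 in BAT and 0.82 in CL, both past the threshold, and by 0.33 in RS and 0.50 in RG, neither past it. Atp5e was at 7.77, 7.29, 7.73 and 7.13 in WAT, 8.39, 8.64 and 8.36 in BAT, 8.31, 8.38 and 8.98 in CL, 7.65 and 7.66 in RS, and 7.97, 7.72 and 7.86 in RG. Its RS arrays lay inside the WAT range, and CL had the highest mean. The Atp5e difference was 0.98 ± 0.196 in BAT (limma adjusted p = 0.00134) and 1.08 in CL (adjusted p = 0.00189), against 0.17 in RS and 0.37 in RG (adjusted p = 0.583 and 0.229).

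Atp5c1 and Atp5j gave weak signals. Their means over all arrays were 4.28 and 4.03, while the other 22 coding members had means from 6.61 to 11.15. Atp5c1 ranged from 3.92 to 4.14 in WAT and from 3.83 to 4.88 in BAT, and Atp5j, coupling factor 6 of the peripheral stalk, from 3.77 to 4.09 in WAT and from 4.02 to 4.09 in BAT. The BAT differences were 0.45 (limma adjusted p = 0.09) and 0.16 (adjusted p = 0.375). Atp5c1 passed in BAT with array weights and without BAT 4, where it was lowest of the BAT arrays.

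The peripheral stalk holds the head still while the rotor turns. Its gene Atp5o, the oligomycin sensitivity protein at the top of the stalk, was at 7.39, 7.13, 7.52 and 7.09 in WAT and 9.23, 9.33 and 8.07 in BAT, at 8.35, 8.59 and 8.72 in CL, at 7.51 and 7.88 in RS, and at 8.03, 7.52 and 7.95 in RG. BAT 4 lay 1.21 below the mean of the other BAT arrays and below all CL arrays, and RS 3 and RG 3 touched the WAT range. Atp5o was 3.02-fold higher in BAT (log2 difference 1.59 ± 0.258, limma adjusted p = 0.000332) and 2.41-fold in CL, while RS (0.41, adjusted p = 0.31) and RG (0.55, adjusted p = 0.175) did not pass. Atp5pb, subunit b, differed by 0.87 in BAT, 0.82 in CL and 0.74 in RG, all past the threshold, and by 0.59 in RS (adjusted p = 0.0585).

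In the membrane part, Atp5k, subunit e of the interface where ATP synthases pair up, had the largest BAT difference of the 12. It was at 7.59, 6.81, 7.60 and 6.58 in WAT, 8.75, 8.72 and 8.77 in BAT, 8.15, 8.16 and 9.17 in CL, 8.08 and 8.02 in RS, and 8.71, 8.43 and 8.72 in RG. The RG arrays sat close to BAT, and CL 4 was the highest of all 15. Atp5k was 3.04-fold higher in BAT (log2 difference 1.60 ± 0.271, limma adjusted p = 0.000459), 2.55-fold in CL, 2.78-fold in RG (1.48 ± 0.271, adjusted p = 0.00437) and 1.87-fold in RS (adjusted p = 0.0476). It was the coding member with the largest RG difference. Atp5md and Atp5mpl, small proteins of the same membrane region, differed from WAT by 1.18 and 0.72 in BAT and by 1.10 and 0.68 in CL, all past the threshold, and did not pass in RS or RG.

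The rotor ring of the membrane part is made of c subunits, encoded by Atp5g1, Atp5g2 and Atp5g3. Of these, Atp5g3 is described here, and Atp5g1, the gene named above for brown fat, and Atp5g2 were not analysed here. Atp5g3 was at 7.78, 7.35, 7.73 and 7.33 in WAT, 7.65, 7.96 and 7.56 in BAT, 7.87, 7.89 and 7.89 in CL, 7.67 and 7.99 in RS, and 8.36, 8.10 and 8.16 in RG. The BAT and WAT arrays overlapped, and all RG arrays lay above all others. The BAT difference was 0.18 ± 0.163 (adjusted p = 0.394, 95% interval -0.17 to 0.52), CL was 0.34 (adjusted p = 0.139) and RS 0.28 (adjusted p = 0.273). In RG Atp5g3 was 1.58-fold higher than in WAT (log2 difference 0.66 ± 0.163, limma adjusted p = 0.0188). RG was 0.48 ± 0.175 above BAT, which did not pass (adjusted p = 0.0741), and it passed with arrays centred on their medians (0.57, adjusted p = 0.0415) with array weights (0.54, adjusted p = 0.0408) and without BAT 3 (0.60, adjusted p = 0.0494). With quantile normalization it was 0.34 (adjusted p = 0.257), and with the replicate number as a block 0.51 (adjusted p = 0.237). The call against WAT was lost without WAT 2, WAT 4, RG 2 or RG 4, with adjusted p-values from 0.0572 to 0.0892. It was also lost with the replicate block (adjusted p = 0.0797).

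The inhibitor of the ATP synthase, inhibitory factor 1, blocks the enzyme from running backwards. Its gene, Atpif1 in the tables used here, falls outside the symbol rule and was added after the values were seen. It was at 7.22, 7.70, 7.44 and 7.57 in WAT, 7.19, 7.20 and 7.05 in BAT, 7.23, 7.21 and 6.84 in CL, 6.81 and 7.22 in RS, and 6.82, 7.15 and 6.77 in RG. The BAT and RG arrays lay below every WAT array, in contrast to the subunits. Atpif1 was lower in RG than in WAT (log2 difference -0.57 ± 0.17, limma adjusted p = 0.0421), and the differences of -0.34 in BAT, -0.39 in CL and -0.47 in RS did not pass (adjusted p = 0.118, 0.102 and 0.0901). The RG difference was -0.54 without WAT 4 and did not pass (adjusted p = 0.0998).

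**Figure D4:**
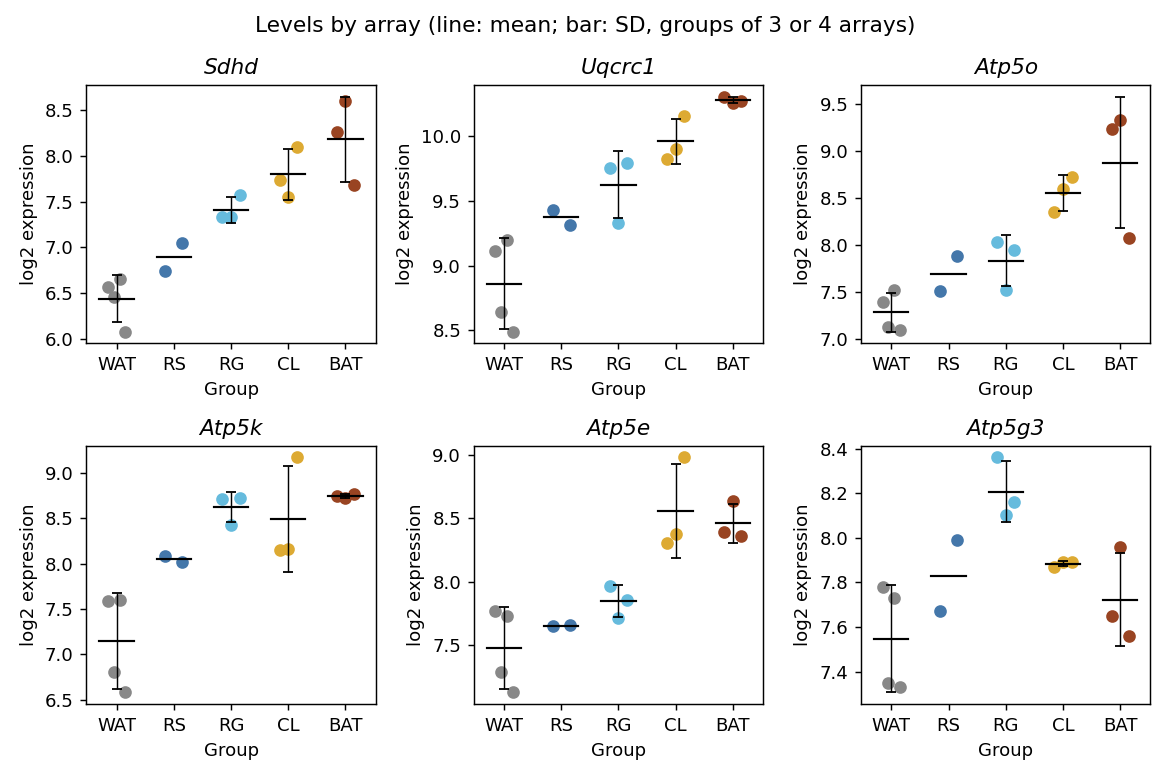
Log2 expression of 6 subunit genes in each array, with the group mean as a line and the SD as a bar for groups of 3 or 4 arrays. Sdhd, Uqcrc1 and Atp5o step up from WAT through RS, RG and CL to BAT, Atp5k is nearly as high in RG as in BAT, Atp5e in RS lies in the WAT range, and Atp5g3 is highest in RG.

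The pseudogene rows lay near the bottom of the array's range and share sequence with their parent genes, so their values are uncertain. Atp5c1-ps had a mean of 1.62 over all arrays and was 0.83 higher in BAT than in WAT (limma adjusted p = 0.00702). With quantile normalization the 21 members called in BAT against WAT were all coding, so this call was lost. Atp5c1-ps was lower in RS and RG than in BAT, by log2 differences of -1.14 and -1.07 (limma adjusted p = 0.0278 and 0.00936). Uqcrh-ps1 had a mean of 2.17 and was higher in RS, at 2.68 and 2.80, than in WAT, at 1.84 to 2.01 (log2 difference 0.83, limma adjusted p = 0.00327). Its parent Uqcrh did not pass in RS.

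Among the UCP1-positive groups, the group means of most subunits followed 1 order. WAT had the lowest mean in 24 of 24 coding members, BAT the highest in 21, CL in 2 (Atp5e and Atp5j) and RG in 1 (Atp5g3). The whole order from BAT through CL, RG and RS down to WAT held in 16 of 24. Neighbours in this order mostly did not differ past the threshold, as the tests of each pair show.

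No subunit differed between CL and BAT at the threshold. None of the 24 coding members passed (background 2.05% of all probe sets in either direction), none had an unadjusted p under 0.05, and the smallest adjusted p was 0.331, for Uqcrfs1. The CL mean was below the BAT mean in 21 of 24, with a median difference of -0.20. The 95% intervals reached from -0.99 to 0.57 across the members, so differences of nearly 2-fold stay within them for some genes. CL 4 lay above the mean of CL 1 and CL 3 in 23 of 24 coding members, by a median of 0.41.

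RS lay below BAT in 23 of 24 coding members, with a median difference of -0.64, and Sdhd, Uqcrc1 and Atp5o passed (background 2.34% of all probe sets lower). Sdhd was 2.44-fold lower in RS than in BAT (log2 difference -1.28 ± 0.258, limma adjusted p = 0.0147). Uqcrc1 was 1.87-fold lower (log2 difference -0.90 ± 0.223, limma adjusted p = 0.0377), and Atp5o was 2.27-fold lower (log2 difference -1.18 ± 0.308, limma adjusted p = 0.0466). The RS and BAT arrays did not overlap for these genes. For Sdha, in contrast, the difference was -0.20 with an interval from -0.86 to 0.46. Without BAT 1, BAT 3 or RS 4 only Sdhd passed, and without RS 3 none did. Calls over all probe sets, in either direction, were 3.67% with all arrays. They were 2.8%, 1.88%, 3.55% and 1.47% in the order above.

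RG lay below BAT in 23 of 24 coding members as well, with a median difference of -0.45, and Sdhd, Uqcrc1 and Atp5o passed again (background 8.42% lower). A count of 3 of 24 lies close to that background. Sdhd was 1.71-fold lower (log2 difference -0.77 ± 0.23, limma adjusted p = 0.038), Uqcrc1 1.57-fold lower (adjusted p = 0.0414) and Atp5o 2.06-fold lower (adjusted p = 0.0229). Both comparisons use the same BAT arrays, so the shared names are not separate evidence. Without BAT 1, BAT 3 or RG 3 no coding member was lower at the threshold, without RG 2 or RG 4 only Atp5o was, and without BAT 4 there were 5. With only these groups in the fit Uqcr10 alone was lower, and with arrays centred on their medians Atp5o alone was. The exception in direction was Atp5g3, described above.

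No coding member differed between the treatments at the threshold. In RS against CL the background was 1.27% of all probe sets, 23 of 24 differences were negative with a median of -0.39, 6 had an unadjusted p under 0.05 and the smallest adjusted p was 0.0722, for Atp5e (log2 difference -0.90, 95% interval -1.40 to -0.40). In RS against RG the background was 0.682%, 21 of 24 were negative with a median of -0.17, none had an unadjusted p under 0.05 and the intervals ran from -1.26 to 0.72. In CL against RG the background was 2.87%, 20 of 24 were positive with a median of 0.19, 3 had an unadjusted p under 0.05 and the smallest adjusted p was 0.0798, again for Atp5e (log2 difference 0.71, 95% interval 0.26 to 1.15). These intervals do not show that the treatments act alike on the subunits.

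Within groups, certain arrays departed from their group across the members. WAT 4 was below the mean of WAT 1 to WAT 3 in 24 of 24 coding members, by a median of -0.49, against -0.06 over all probe sets. It also had the highest macrophage mean of the WAT arrays, 8.49, and the lowest mean of the adipocyte markers, 8.12, where the other WAT arrays were at 9.33 to 9.80. Its part in the differences from WAT is given by the counts without it. BAT 4 was below BAT 1 and BAT 3 in 18 of 24, by a median of -0.23, but unevenly. The gap was -1.21 in Atp5o, -0.96 in Atp5md and -0.75 in Sdhd, and there was none in Sdha (0.10) or Atp5b (0.11).

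Neighbours of these complexes in energy metabolism were counted in the same way, beside the shares of all probe sets given above (27.6% higher in BAT, 15.2% in CL, 11.1% in RS and 5.19% in RG). Of 34 complex I subunits, which feed electrons from NADH into the chain, 32 were higher than in WAT in BAT, 30 in CL, 7 in RS and 16 in RG. Of 14 complex IV subunits, which pass electrons to oxygen, the counts were 11, 10, 3 and 4, and of 14 citric acid cycle genes 13, 13, 3 and 10. Without WAT 4 the counts in BAT, CL, RS and RG were 29, 25, 3 and 6 for complex I, 10, 6, 2 and 2 for complex IV, and 13, 11, 2 and 7 for the cycle. Ndufab1 of complex I had the smallest p of its list in BAT (log2 difference 2.04, limma adjusted p = 1.72e-05), and Cox7a1 of complex IV differed by 4.85. The proton pump of lysosomes, the vacuolar ATPase, served as a rotary ATPase outside mitochondria. Of its 13 measured subunits none was higher than in WAT in any group, and 3 were lower in BAT, 2 in CL, 3 in RS and none in RG. Over all probe sets the shares lower in BAT, CL, RS and RG were 16.4%, 9.97%, 10.3% and 6.24%. Without WAT 4, none of these 13 was lower in BAT, 2 were lower in CL, 1 in RS and none in RG.

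Factors that build the complexes form short lists, and several of their counts lie near the shares of all probe sets. Of 4 complex II assembly factors, 2 passed in BAT (Sdhaf1 at 0.88 and Sdhaf3 at 0.60), none in CL or RS and 2 in RG. Sdhaf2, which helps insert the flavin into Sdha, was higher in RG than in WAT (log2 difference 0.72, limma adjusted p = 0.00713), and was also higher in RG than in BAT by 0.53 (adjusted p = 0.0356). Of 6 complex III assembly factors, 4 were higher in BAT, 2 in CL, none in RS and 1 in RG, with Uqcc1 at 1.33 in BAT. Of 6 ATP synthase assembly factors, the counts were 4, 3, 1 and 1. Fmc1 had the smallest p of these in BAT (log2 difference 1.47, limma adjusted p = 0.000257), and it was lower in RS than in BAT by a log2 difference of -1.70 (adjusted p = 0.00446). Without WAT 4 the counts in BAT, CL, RS and RG were 1, 0, 0 and 1 for complex II factors, 4, 1, 0 and 0 for complex III factors, and 4, 2, 0 and 1 for ATP synthase factors, and the RG call of Sdhaf2 was kept (adjusted p = 0.0235). The call of Sdhaf3 in BAT was lost (adjusted p = 0.0939).

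Carriers and regulators around the complexes were measured too. Their counts stand beside 27.6% of all probe sets higher in BAT, 15.2% in CL, 11.1% in RS and 5.19% in RG. The shares lower were 16.4%, 9.97%, 10.3% and 6.24%. Cycs, the cytochrome c that complex III reduces, was higher than in WAT in BAT (1.12), CL (0.96) and RG (1.05), while its RS difference was -0.09 (limma adjusted p = 0.868). Cox7a2l, the other gene of its list, differed by 0.26 in BAT and did not pass. The array means of the 2 genes together were low, from 3.19 in WAT 4 to 4.61 in BAT 3. Without WAT 4 the CL and RG calls of Cycs were lost (adjusted p = 0.0703 and 0.0858). Of 3 measured carriers of phosphate, ADP and ATP, 2 were higher in BAT, 1 in CL and none in RS or RG, with Slc25a4 at 0.54 in BAT, and without WAT 4 only 1 in BAT was. Of 11 regulators of mitochondrial genes, 6 were higher and 1 lower in BAT and in CL, 3 higher and 1 lower in RS, and 3 higher in RG. Without WAT 4 the higher counts were 6, 6, 1 and 3, and 1 was lower, in RS. In that fit the estrogen-related receptors Esrrb and Esrrg were higher in BAT (0.89 and 1.06, limma adjusted p = 0.00215 and 0.000951). Esrra (0.41), Gabpa (0.16) and Nrf1 (-0.48) did not pass there (adjusted p = 0.177, 0.431 and 0.0594). Ppargc1b differed by 2.11 in BAT and Ppargc1a, its relative that switches on mitochondrial genes, by 2.05. Of 10 thermogenic genes, 10 were higher in BAT and in CL, 9 in RS and 8 in RG (without WAT 4, 10, 9, 7 and 8), a list that holds Ucp1, on which cells were gated.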

How the data were processed

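Log2 expression values were used as the authors deposited them, with a single value for each probe set on an array. Per the labels' protocols, the WT Pico kit was used to amplify 2 ng of total RNA and label it with biotin. RMA, Affymetrix Expression Console and affy 1.36.1 are named in the submitters' processing notes, with no order or settings. The genome build of the arrays is not given in the sources used here. Each probe set was named through its Entrez number (23185 had 1 symbol, 2021 none), and all 26 members had the same symbol in RefSeq. Arrays have no read depth, so their number limits the precision. The median of an array was 3.33 to 3.47, and arrays of 1 group correlated at 0.945 to 0.988 across probe sets. The low end of the values differed more than the medians. The 10th percentile of an array was lowest in WAT (1.51 to 1.68) and highest in BAT (2.11 to 2.15). The SD was largest in WAT (1.91 to 2.00) and was 1.65 to 1.72 in BAT. The part of this in the calls of weak probe sets was not tested, and marker lists were not recomputed with quantile normalization.

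Group differences were tested in R 4.3.3 with limma 3.58.1 (lmFit, contrasts.fit, eBayes) on all 15 arrays and all probe sets, with a mean per group, 10 residual degrees of freedom and two-sided tests in 10 comparisons. RS holds 2 arrays and is taken to vary like the other groups. The members, the gene lists and the rule for named genes were chosen with earlier results of these data known. All members may be named, with array values for all of complex II and for members of complex III and the ATP synthase set apart by role or by the largest or smallest BAT difference, by a direction against the others or by a call between UCP1-positive groups. From other lists up to 3 genes of smallest p in BAT were taken. Cycs, Cox7a2l, Sdhaf2 and the further values of Fmc1 were added after their values were seen. So were the factors of the 3 longer motifs and array values of Atp5e. The family genes Atp5g1, Atp5g2, Atp5h, Atp5j2, Atp5l and Uqcrb and the mitochondrially encoded subunits were not analysed here.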

Additional observations from a re-analysis of the deposited data

How the results depend on the processing

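Counts here are of all 26 members, but the totals of calls kept and lost, and counts said to be of coding members, are of the 24 coding members. Each member's difference was recomputed with arrays centred on their medians, with quantile normalization, with only probe sets above the median mean, with array weights, with only the groups compared, with the replicate number as a block, and without each array, and other gene lists only without WAT 4, which was chosen after seeing the data. No called coding member changed direction under any of these. Over these alternatives, 691 calls of members were kept and 167 were lost, of which 71 were in RG and 33 in RS against WAT, 21 in RS and 23 in RG against BAT, 18 in CL and 1 in BAT against WAT. Titles share replicate numbers across groups, and nothing says what a number marks. Deviations from the group means correlated between -0.88 and -0.05 in the 24 same-numbered pairs. Of the 15 arrays, 0 matched best with a same-numbered one. With so few arrays per group these deviations depend on each other. The check therefore cannot settle whether a number marks a shared animal or day. With the replicate block the count was 22 of 22 in BAT against WAT, 14 instead of 21 in CL against WAT, 1 instead of 5 in RS against WAT, 3 instead of 15 in RG against WAT, and 0 instead of 4 in both RS and RG against BAT. Atp5g3 in RG against WAT was then at 0.68 (adjusted p = 0.0797). The RS count against WAT was 2 with median centring, 1 with array weights and 1 with only the groups compared. The RG count against WAT rose to 20 with array weights and 17 with only probe sets above the median mean. It fell to 10 with quantile normalization and 10 with only the groups compared. Calls over all probe sets in RG against WAT were then 6509, 2551 (of 12601 tested), 2027 and 3159. The RS count against BAT was 0 with array weights and 0 with only the groups compared, where RG against BAT had 2. Leaving out WAT 4 and RS 3 together, chosen after seeing the data, gave 1 in RS and 9 in RG against WAT and 0 in RS against BAT. Leaving out WAT 4 and BAT 4 gave 2 and 6 against WAT and 7 in RS against BAT. Without 1 array at a time, the counts against WAT were 21 to 23 in BAT, 15 to 21 in CL, 1 to 6 in RS and 1 to 16 in RG. Against BAT they were 0 to 0 in CL, 0 to 2 in RS and 1 to 6 in RG, and 0 to 0 between the treatments. The cause of these changes was not tested. Fits without an array, with only the groups compared or with the block also had fewer arrays or residual degrees of freedom (7 with the block). Over all probe sets, calls in BAT against WAT fell from 11096 to 7286 with the block and 6220 with quantile normalization. In CL against WAT they fell from 6350 to 2461 and 3152, in RS against WAT from 5387 to 2052 and 2455, and in RG against WAT from 2882 to 1071 with the block, against 6509 with array weights. In RS against BAT they fell from 925 to 72 with the block, 128 with array weights and 60 with only the groups compared. Without WAT 4 and RS 3 they were 496 there, and without WAT 4 and BAT 4 they were 813. In RG against BAT they fell from 3596 to 347 with the block and 2816 with only the groups compared. Median centring moved the median BAT difference of the coding members from 1.12 to 1.02, and their counts in BAT, CL and RG stayed at 21, 21 and 15.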
